A study of Mus musculus with 6 samples.

Results

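Fos, Fosb, Fosl2, Jun, Junb, Jund, Egr1, Egr2, Ier2 and Atf3 are AP-1 subunits and immediate-early factors, and their transcripts were followed here in sorted mouse stem and progenitor cells that carried BCR-ABL with Blk, BCR-ABL alone, or an empty vector. The 10 genes were chosen by symbol: a probe set counted where the platform annotation gave it the gene's symbol and no other. All 10 were found, each with 1 probe set, among 19938 genes measured. The rule used no measured values, as each gene had 1 probe set, but the genes were chosen with earlier results of these data known.

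Total RNA was hybridised to 6 Affymetrix whole-transcript arrays, with 2 biological replicates in each of 3 groups. Donor marrow of C57BL/6 mice treated with 5-fluorouracil, 8 weeks old per the labels, was transduced by retrovirus and transplanted into C57BL/6 recipients. The construct held Blk together with BCR-ABL and GFP in the BCR-ABL-Blk group, BCR-ABL and GFP in the BCR-ABL group, or GFP alone in the vector group. The fusion kinase BCR-ABL drives chronic myeloid leukemia, and Blk, a Src family kinase, is best known from B lymphocytes. GFP+ Lin- c-Kit+ Sca-1+ marrow cells were sorted 14 days after transplantation; the labels call the vector cells HSCs and the others LSCs, the genotype label is WT in all 3 groups, and donor treatment, infection, transplantation and sort are also shared. The transgenes are expressed from a retrovirus in a mixed population of transduced cells. How many mice went into a replicate is not stated in the labels, so p-values measure only the spread between these samples. Blk itself read 6.95 and 7.01 in BCR-ABL-Blk cells, 6.54 and 6.597 in BCR-ABL cells, and 7.15 and 6.95 in vector cells (log2 after quantile normalization), so it was not above the vector level; whether its probe set reads the part carried by the virus is not known here, so it checks no label.

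AP-1 is a dimer of a Fos protein with a Jun protein, or of 2 Jun proteins, that binds DNA through a basic region and a leucine zipper; Atf3 is a related factor that can pair with Jun proteins. Fos, Fosb, Jun, Junb, Egr1, Egr2, Ier2 and Atf3 are immediate-early genes: serum, cytokines and stress switch them on within minutes, through serum response factor, CREB-type factors and AP-1 itself, without new protein synthesis, and their RNAs are short-lived. Jund and Fosl2 are known as steadier or later members. The ERK and JNK kinases, which BCR-ABL is known to engage in other systems, are among the pathways that induce these genes. Cell dissociation and sorting are also known to induce them. In blood cells Jun and Egr factors are best known from the monocyte lineage, and Egr1 and Junb also from the control of stem cell quiescence and expansion in mice.

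None of the 10 genes passed the test across all genes in any of the 3 comparisons, where 0.145% of all genes passed between BCR-ABL and vector, 0.140% between BCR-ABL-Blk and vector and 0% between BCR-ABL-Blk and BCR-ABL; at such shares a count of 0 among 10 genes does not set them apart from other genes. For Fos, Fosb and Jun the 2 arrays of a group lay far apart, by up to 1.72 on the log2 scale, and the 3 group means of Fos and Jun lay closer together than the 2 arrays of any group. Fosl2 and Jund differed little within or between groups. In bulk RNA, fewer cells of a type and less RNA per cell cannot be told apart. All levels are log2 values after quantile normalization between arrays, differences are log2 differences between group means, and p-values come from limma, adjusted over all 19938 genes and called under 0.05.

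**Figure D1:**
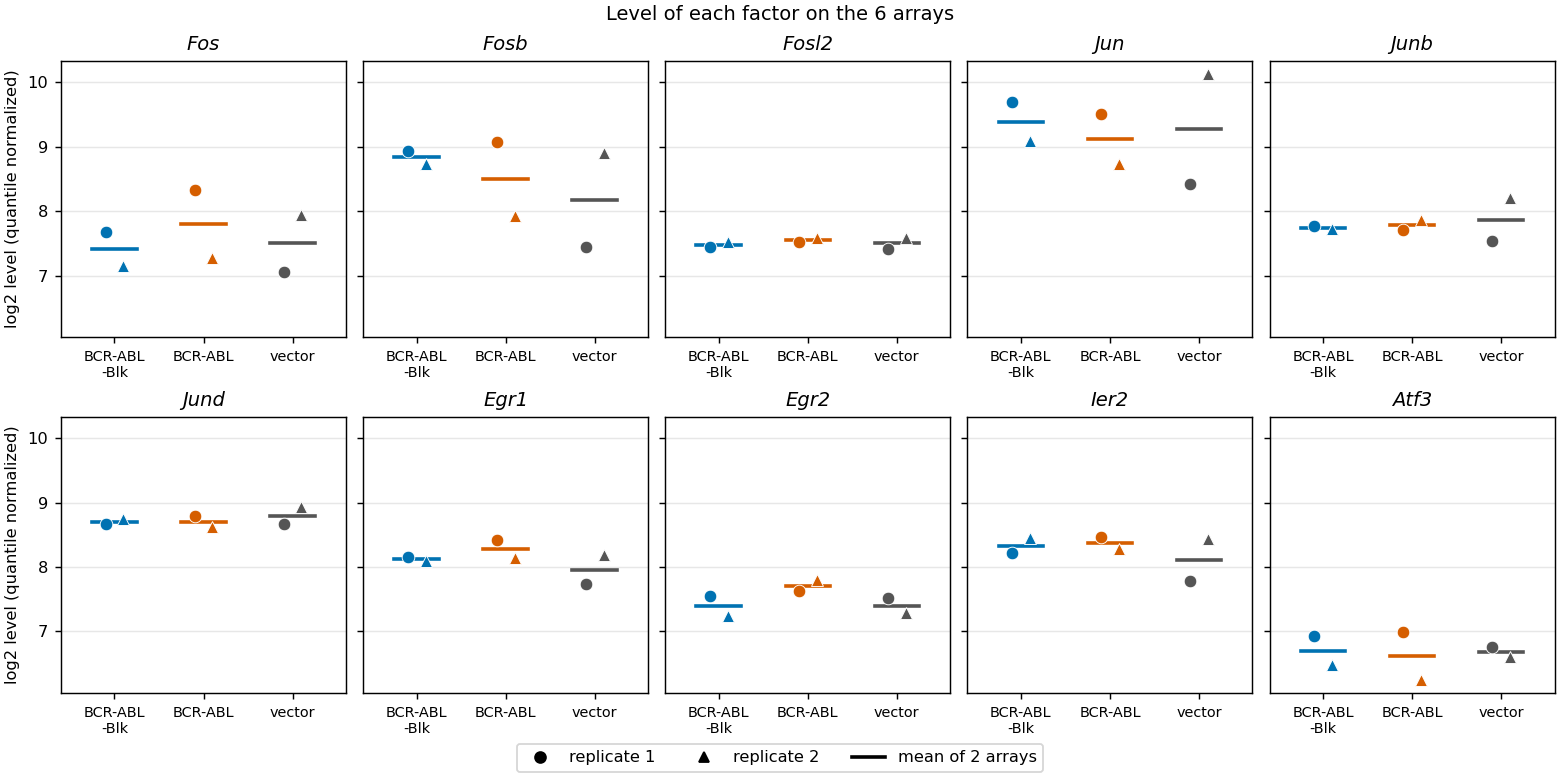
Level of each factor on each array (y axis, log2, quantile normalized) in BCR-ABL-Blk, BCR-ABL and vector cells, with circles for replicate 1, triangles for replicate 2 and a bar for the mean of the 2 arrays. Fos, Fosb and Jun spread widely within groups, with Jun at 8.42 and 10.14 in vector cells, while Fosl2 stays between 7.42 and 7.58 on all 6.

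Fos, the founding partner of Jun in AP-1, read 7.68 and 7.145 in BCR-ABL-Blk cells, 8.33 and 7.28 in BCR-ABL cells, and 7.06 and 7.94 in vector cells (probe set 10397346, replicate 1 then replicate 2). Each group held 1 higher and 1 lower array, and the groups overlapped. The difference was 0.31 between BCR-ABL and vector (SE 0.40, 95% interval −0.62 to 1.23, adjusted p = 0.886) and −0.09 between BCR-ABL-Blk and vector (interval −1.02 to 0.84, adjusted p = 0.977). It was −0.395 between BCR-ABL-Blk and BCR-ABL (interval −1.32 to 0.53, adjusted p = 0.999). These intervals leave room for changes of about the size seen between the 2 arrays of a group.

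Fosb, a close relative of Fos that is induced with it, read 8.935 and 8.74 in BCR-ABL-Blk cells, 9.08 and 7.93 in BCR-ABL cells, and 7.45 and 8.905 in vector cells (probe set 10560481). Vector replicate 1 was the lowest of the 6 arrays and BCR-ABL replicate 2 the next. The difference between BCR-ABL-Blk and vector, 0.66, was the largest of the 10 genes in any comparison (SE 0.50, 95% interval −0.51 to 1.84, adjusted p = 0.776). Fosb differed by 0.33 between BCR-ABL and vector (adjusted p = 0.910) and by 0.33 for BCR-ABL-Blk against BCR-ABL (adjusted p = 0.999). Without normalization between arrays the BCR-ABL-Blk minus vector difference was 0.855 and passed by limma (adjusted p = 0.0187). The median gene differed by 0.15 there. Fosb then read 9.18 and 8.79 in BCR-ABL-Blk cells and 7.26 and 9 in vector cells, which overlap. In that setting 731 genes passed, and the metallothionein gene Mt1 had an adjusted p of 1.95e-18 from 6 arrays. Such p-values cannot be taken to measure each gene's own replicate spread. With normalization but without vector replicate 1 the Fosb difference was −0.07.

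Fosl2, a Fos relative that lacks the strong activation domain of Fos, read 7.45 and 7.52 in BCR-ABL-Blk cells, 7.52 and 7.58 in BCR-ABL cells, and 7.42 and 7.58 in vector cells (probe set 10520862). All 6 values lay within a narrow band. The BCR-ABL minus vector difference was 0.05 (95% interval −0.23 to 0.33, adjusted p = 0.952), and the BCR-ABL-Blk minus vector difference was −0.02 (interval −0.30 to 0.26, adjusted p = 0.984). Between BCR-ABL-Blk and BCR-ABL it was −0.07 (interval −0.35 to 0.21, adjusted p = 0.999), and both BCR-ABL-Blk arrays lay below both BCR-ABL arrays.

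The promoters of Fos, Fosb and Jun, the genes with the widest spread between replicates, are shown with that of Fosl2, the gene with the narrowest. Each is the stretch of 100 bases just before the annotated start, on the gene's own strand, from RefSeq on GRCm38.p6. Fos lies at chr12:85473790-85473889 (+), Fosb at chr7:19310046-19310145 (−), Jun at chr4:95052223-95052322 (−) and Fosl2 at chr5:32136372-32136471 (+). Capitals mark the core of the cAMP response element, TGACG, in Fos and Fosb, and TGACATCA, an AP-1-like element known from the Jun promoter, in Jun.
Fos: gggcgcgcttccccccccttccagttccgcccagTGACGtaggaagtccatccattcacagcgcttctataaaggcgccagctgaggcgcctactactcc
Fosb: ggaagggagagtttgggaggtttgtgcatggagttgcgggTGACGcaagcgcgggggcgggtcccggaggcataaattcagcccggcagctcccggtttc
Jun: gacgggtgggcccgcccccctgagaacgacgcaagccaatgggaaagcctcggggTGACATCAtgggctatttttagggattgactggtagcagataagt
Fosl2: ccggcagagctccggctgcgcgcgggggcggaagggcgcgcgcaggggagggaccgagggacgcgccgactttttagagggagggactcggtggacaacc

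Over the 250 bases before the start, 8 of the 10 genes had a promoter in the RefSeq table; Egr1 and Ier2 are named only. TGACG on either strand was found in 5 of these 8 (Atf3, Egr2, Fos, Fosb and Junb) and in 19.8% of 27025 genes with a promoter in the table. The start of the match lay 66 bases before the annotated start in Fos, which had another at 129, and 60 bases before it in Fosb. TGACATCA on either strand was found in 1 of the 8, Jun, and in 3.41% of all. As this element is known from the Jun promoter, its match in Jun was fixed in advance and is no result of the search. The CArG box, to which serum response factor is known to bind, was found in 1 of the 8, Egr2, and in 1.62% of all. TGANTCA, the AP-1 element, was found in 0 of the 8 and in 7.82% of all. Fosl2 and Jund held none of these 4 motifs in this window, and no match of one motif overlapped a match of another in the 8 promoters. A match is a description of letters and no evidence of binding.

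Jun, the main Jun protein of AP-1, read 9.70 and 9.09 in BCR-ABL-Blk cells, 9.51 and 8.73 in BCR-ABL cells, and 8.42 and 10.14 in vector cells (probe set 10514466). The vector arrays were the lowest and the highest of the 6, so both other groups lay between them. The difference was −0.16 between BCR-ABL and vector (SE 0.53, 95% interval −1.40 to 1.08, adjusted p = 0.967) and 0.11 between BCR-ABL-Blk and vector (interval −1.13 to 1.35, adjusted p = 0.978). It was 0.27 between BCR-ABL-Blk and BCR-ABL (interval −0.97 to 1.51, adjusted p = 0.999). The direction turned with the vector array left out: the BCR-ABL minus vector difference was 0.70 without vector replicate 2, and the BCR-ABL-Blk minus vector difference was −0.74 without vector replicate 1.

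Junb, which can hold back Jun and is known to limit myeloid expansion in mice, read 7.77 and 7.72 in BCR-ABL-Blk cells, 7.71 and 7.86 in BCR-ABL cells, and 7.53 and 8.21 in vector cells (probe set 10580282). Again the vector arrays enclosed the other 4. The difference was −0.09 between BCR-ABL and vector (95% interval −0.59 to 0.41, adjusted p = 0.952), −0.12 between BCR-ABL-Blk and vector (interval −0.62 to 0.38, adjusted p = 0.923) and −0.04 between BCR-ABL-Blk and BCR-ABL (interval −0.54 to 0.46, adjusted p = 0.999). Jund, the most constantly expressed Jun gene in many tissues, read 8.66 and 8.74 in BCR-ABL-Blk cells, 8.79 and 8.61 in BCR-ABL cells, and 8.66 and 8.93 in vector cells (probe set 10572456). Its difference was −0.09 for each BCR-ABL group against vector (adjusted p = 0.922 for BCR-ABL and 0.917 for BCR-ABL-Blk). The BCR-ABL-Blk minus BCR-ABL difference was −0.0017 (95% interval −0.36 to 0.36, adjusted p = 0.999).

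Atf3, a stress-induced factor that often represses its targets, read 6.93 and 6.48 in BCR-ABL-Blk cells, 6.99 and 6.24 in BCR-ABL cells, and 6.75 and 6.61 in vector cells (probe set 10361091). Replicate 1 was the higher array in each of the 3 groups, and the vector arrays lay inside the range of both other groups. The difference was −0.06 between BCR-ABL and vector (95% interval −0.64 to 0.52, adjusted p = 0.972), 0.02 between BCR-ABL-Blk and vector (interval −0.56 to 0.60, adjusted p = 0.990) and 0.09 between BCR-ABL-Blk and BCR-ABL (interval −0.49 to 0.67, adjusted p = 0.999).

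Egr1, a zinc finger factor known to keep mouse stem cells quiescent, read 8.155 and 8.09 in BCR-ABL-Blk cells, 8.41 and 8.14 in BCR-ABL cells, and 7.73 and 8.18 in vector cells (probe set 10454782). Vector replicate 1 was the low array, and vector replicate 2 lay among the other 4. Egr1 differed by 0.32 between BCR-ABL and vector (SE 0.18, 95% interval −0.11 to 0.75, adjusted p = 0.691), by 0.17 for BCR-ABL-Blk against vector (interval −0.26 to 0.60, adjusted p = 0.862) and by −0.15 for BCR-ABL-Blk against BCR-ABL (interval −0.58 to 0.28, adjusted p = 0.999). Without vector replicate 1 the BCR-ABL minus vector difference was 0.0975, and without vector replicate 2 it was 0.55. The BCR-ABL-Blk minus BCR-ABL difference ran from −0.29 to −0.017 over leaving out each array.

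Egr2, its relative with roles in myeloid and lymphoid development, read 7.55 and 7.235 in BCR-ABL-Blk cells, 7.62 and 7.80 in BCR-ABL cells, and 7.52 and 7.28 in vector cells (probe set 10363735). Both BCR-ABL arrays lay above both arrays of each other group. The BCR-ABL minus vector difference was 0.31 (SE 0.16, 95% interval −0.05 to 0.67, adjusted p = 0.639) and the BCR-ABL-Blk minus BCR-ABL difference was −0.32 (interval −0.68 to 0.04, adjusted p = 0.999). The BCR-ABL-Blk minus vector difference was −0.01 (interval −0.37 to 0.35, adjusted p = 0.994). The BCR-ABL arrays enter both of the comparisons in which Egr2 arrays did not overlap.

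Ier2, a nuclear protein induced with Fos in fibroblasts, read 8.215 and 8.45 in BCR-ABL-Blk cells, 8.47 and 8.28 in BCR-ABL cells, and 7.78 and 8.44 in vector cells (probe set 10580183). Vector replicate 1 was the low array here too. The difference was 0.27 between BCR-ABL and vector (95% interval −0.26 to 0.80, adjusted p = 0.808), 0.22 between BCR-ABL-Blk and vector (interval −0.30 to 0.75, adjusted p = 0.847) and −0.04 between BCR-ABL-Blk and BCR-ABL (interval −0.57 to 0.49, adjusted p = 0.999). Without vector replicate 1 the differences from vector were −0.065 for BCR-ABL and −0.11 for BCR-ABL-Blk.

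**Figure D2:**
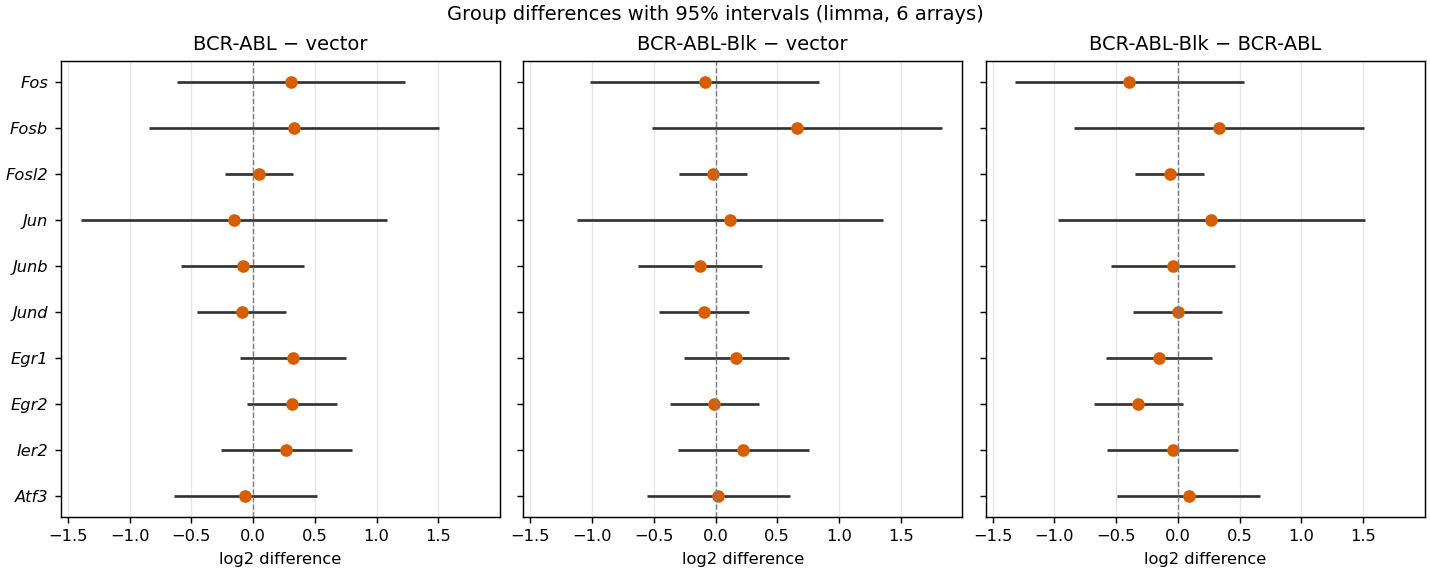
Difference between group means of each factor (x axis, log2) for the 3 comparisons, as points with 95% intervals from the fit to all 6 arrays. Every interval holds 0, and the intervals of Fos, Fosb and Jun are the widest, reaching from −1.40 to 1.08 for Jun between BCR-ABL and vector.

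Between BCR-ABL and vector 6 of the 10 genes lay above 0 and 4 below, with a median difference of 0.16, where the median of all genes was 0.02. Of the 10, 0 passed at an adjusted p under 0.05, against 0.145% of all genes (29 of 19938), and 0 had an unadjusted p under 0.05, against 8.64% of all genes. The arrays of both groups did not overlap for 1 of the 10, Egr2, and for 37.0% of all genes. Leaving out vector replicate 1 gave a median of −0.0975, leaving out vector replicate 2 gave 0.40, and leaving out BCR-ABL replicate 1 gave −0.0969.

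Between BCR-ABL-Blk and vector 5 genes lay above 0 and 5 below (median 0.007, and 0.004 over all genes). At an adjusted p under 0.05, 0 of the 10 passed, against 0.140% of all genes (28 of 19938). At an unadjusted p under 0.05 there were 0 of the 10, against 9.42% of all genes. The arrays did not overlap for 0 of the 10 and for 37.2% of all genes. This median became −0.10 when vector replicate 1 was left out (2 above 0 and 8 below) and 0.28 when vector replicate 2 was; leaving out BCR-ABL-Blk replicate 1 gave −0.10, and leaving out BCR-ABL-Blk replicate 2 gave 0.16. Without normalization between arrays, where the median gene differed by 0.15, all 10 lay above 0 (median 0.1525).

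Between BCR-ABL-Blk and BCR-ABL 3 genes lay above 0 and 7 below (median −0.04, and −0.01 over all genes). Leaving out BCR-ABL replicate 1 gave 0.068 (6 above 0 and 4 below), and leaving out BCR-ABL replicate 2 gave −0.18 (1 above and 9 below). By limma 0 of the 10 passed, and 0% of all genes did. At an unadjusted p under 0.05 there were 0 of the 10 and 3.96% of all genes (790 of 19938). The arrays did not overlap for 2 of the 10, Fosl2 and Egr2, both lower in BCR-ABL-Blk, and for 34.0% of all genes. Without normalization between arrays, where the median gene differed by 0.255, 8 of the 10 lay above 0 and 2 below (median 0.2525).

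For 9 of the 10 genes the spread between the 2 arrays of a group was larger than the spread of the group means, a description with no test. A mean of 2 arrays varies less than single arrays, so genes without a group difference tend to this side too. The share over all genes was not computed, so the count does not set these genes apart. The SD between replicate arrays, pooled over the 3 groups, was 0.81 for Jun, 0.76 for Fosb and 0.60 for Fos, each above the value of at least 99.0% of all genes. It was 0.36 for Atf3, 0.30 for Ier2 and 0.28 for Junb, and each of these 6 genes lay above at least 91.6% of all genes. Egr1 (0.22), Egr2 (0.18) and Jund (0.13) also lay above the all-gene median of 0.12, while Fosl2 (0.08) lay below it. For Jun the SD of the 3 group means was 0.14, far under its replicate SD, and for Egr2 the SDs were about equal at 0.18.

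**Figure D3:**
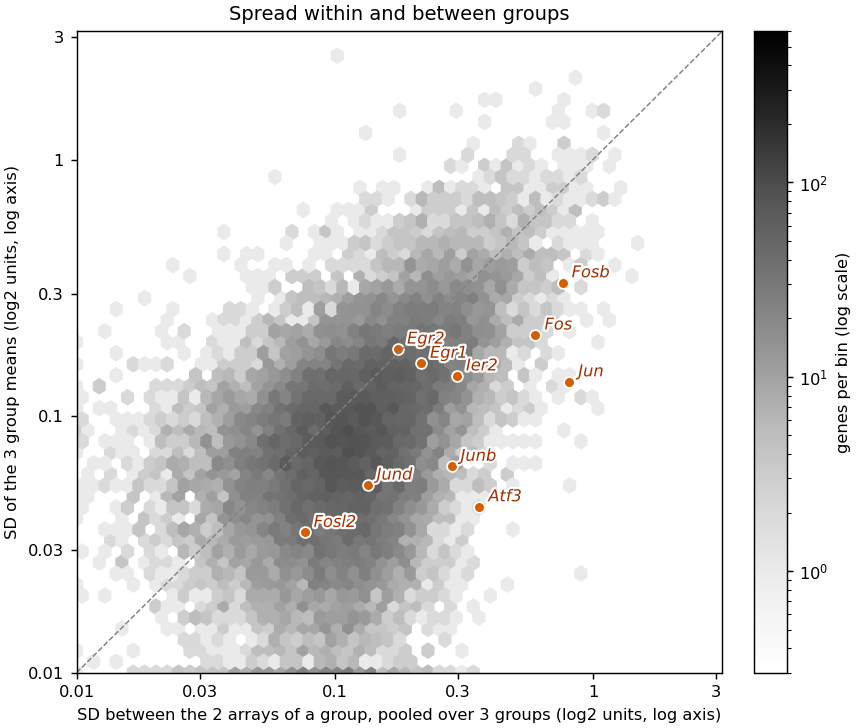
SD between the 2 arrays of a group, pooled over the 3 groups (x axis), against the SD of the 3 group means (y axis), both in log2 units on log axes, for the 10 factors (points) and all 19938 genes (shaded bins, with values below 0.01 drawn at 0.01). Jun, Fosb and Fos lie farthest right of the 10, with replicate SDs of 0.81, 0.76 and 0.60. All points except Egr2 lie below the dashed line of equal SDs, where genes without a group difference tend to lie too.

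The replicates differed in a shared direction for many of the genes. In vector cells 8 of the 10 were higher on replicate 2, with a median difference (replicate 2 minus replicate 1) of 0.56, while 47.7% of all genes were higher on that array. Jun was 3.29-fold higher there, Fosb 2.75-fold, Fos 1.83-fold, Junb 1.60-fold and Ier2 1.58-fold; Egr2 and Atf3 were the exceptions. On the BCR-ABL arrays 7 were higher on replicate 1, against 56.1% of all genes, with Fosb at 2.22-fold, Fos at 2.07-fold, Jun at 1.72-fold and Atf3 at 1.69-fold. On the BCR-ABL-Blk arrays 7 were again higher on replicate 1, against 46.4% of all genes, led by Jun (1.52-fold) and Fos (1.45-fold). Fos, Fosb and Jun thus had the same higher array within each of the 3 groups. Egr1 shared these higher arrays, by 1.04-fold on the BCR-ABL-Blk arrays. The remaining factors did not share them in every group, and Fosl2 differed by at most 1.12-fold between replicates.

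**Figure D4:**
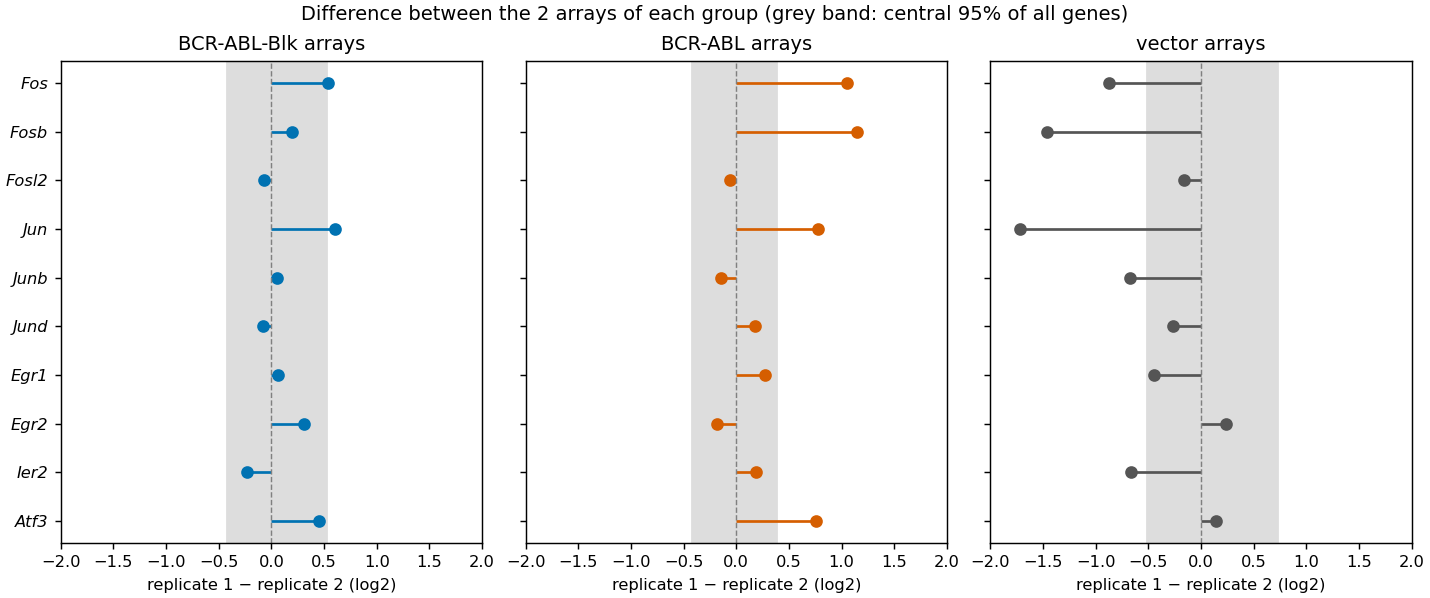
Replicate 1 minus replicate 2 (x axis, log2) for each factor within BCR-ABL-Blk, BCR-ABL and vector cells, over a grey band that holds the central 95% of all genes on the same arrays. On the vector arrays 5 of the 10 factors lie outside the band, on the low side; 4 do on the BCR-ABL arrays and 2 on the BCR-ABL-Blk arrays, on the high side.

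Several array-wide values moved with these replicate differences. The median deposited value was 7.52 and 7.29 in BCR-ABL-Blk cells, 7.20 and 7.01 in BCR-ABL cells, and 7.06 and 7.44 in vector cells, so the array with the higher median was the one with more Fos, Fosb and Jun in all 3 groups. Quantile normalization gave every array the same distribution, and the differences above are those that remained; before it, all 10 genes were higher on vector replicate 2 (median 0.855).

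Cell type markers also differed between arrays. Linear levels were summed over 9 measured B cell markers of 10 listed. The sums were 4562 and 3206 in BCR-ABL-Blk, 2465 and 2989 in BCR-ABL, and 17480 and 6167 in vector cells. The array low in Fos, Fosb and Jun was thus the one higher in B cell markers in vector and BCR-ABL cells. In BCR-ABL-Blk cells it was the one lower in them. Summed erythroid markers, 7 of 10 measured, were 4797 and 3573 in BCR-ABL-Blk, 5080 and 5325 in BCR-ABL, and 10438 and 6836 in vector cells. Neutrophil markers (10 of 10) were 20648 and 17893 in BCR-ABL-Blk, 23114 and 25199 in BCR-ABL, and 24942 and 36133 in vector cells. The vector arrays thus differed in several lineages at once.

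Monocyte and dendritic cell markers (10 of 10) were 4698 and 5350 in BCR-ABL-Blk, 4136 and 5319 in BCR-ABL, and 11633 and 12745 in vector cells. Mast cell and basophil markers (10 of 10) were 10795 and 5010 in BCR-ABL-Blk, 9291 and 10334 in BCR-ABL, and 4139 and 5338 in vector cells; T and NK cell markers (10 of 10) ran from 6731 to 7670 in BCR-ABL-Blk, from 6972 to 8170 in BCR-ABL, and from 4954 to 5890 in vector cells. The genes of the T and NK list went both ways: 6 of the 10 lay above 0 and 4 below between BCR-ABL and vector (median 0.03), and 4 above and 6 below between BCR-ABL-Blk and vector (median −0.10). Stem and progenitor markers, 8 of 10 measured, summed to 13232 and 12769 in BCR-ABL-Blk, 12380 and 13202 in BCR-ABL, and 10634 and 10705 in vector cells. Of the 8, only Kit was itself part of the sort. For each BCR-ABL group against vector 6 lay above 0, and 2, Kit and Flt3, lay below. Kit, the receptor used in the sort, read between 10.33 and 10.92 on the log2 scale on all 6 arrays; Ly6a, which encodes Sca-1, was not analysed here. Of the marker genes, Gzmb of the mast cell list (3.25 for BCR-ABL and 2.503 for BCR-ABL-Blk against vector), H2-Ab1 of the monocyte and dendritic cell list (−1.38 and −1.225) and Klrd1 of the T and NK list (−1.29 and −1.03) were called in both comparisons with vector. For BCR-ABL-Blk the call was kept in 7 of 15 alternatives for Gzmb, 5 of 15 for H2-Ab1 and 3 of 14 for Klrd1. For BCR-ABL it was kept in 13 of 15, 11 of 15 and 12 of 14. Cd48 of the stem and progenitor list (0.47) was called between BCR-ABL and vector. Meis1 of that list (1.08) and Ccr2 of the monocyte list (−1.38) were called between BCR-ABL-Blk and vector. Each of these 3 had an adjusted p of 0.049 by limma that was lost in most alternatives. Detection was not measured on these arrays, so no marker is called absent. The part of these values in the replicate differences was not tested.

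Heat shock and metallothionein genes, listed for their known induction by handling, summed to 32561 and 30820 in BCR-ABL-Blk, 33373 and 32105 in BCR-ABL, and 34420 and 35471 in vector cells (10 of 11 measured). The array with more Fos, Fosb and Jun had the larger sum in all 3 groups, by small margins, in a sum carried by its most abundant genes. Single genes differed more: Hspa1a, a stress-induced heat shock protein named here after its values were seen, read 9.35 and 8.38 in BCR-ABL-Blk cells, 10.035 and 8.83 in BCR-ABL cells, and 8.18 and 9.68 in vector cells. Its higher array was that of Fos, Fosb and Jun in each group. The list went both ways: Dnajb1, Hspa8 and Mt1 shared these higher arrays, while Hspa5, Hspb1, Hspe1, Hsph1 and Mt2 did not. Hsp90aa1 read 12.875 on both vector arrays. The share of all genes with these higher arrays was not computed. The part of these genes in the replicate differences of Fos, Fosb and Jun was not tested. By limma 0 of the 10 measured genes passed in any comparison. At an unadjusted p under 0.05, 1 was higher and 3 lower in each BCR-ABL group against vector, and 3 were lower between BCR-ABL-Blk and BCR-ABL. Of all genes 8.64% (BCR-ABL and vector), 9.42% (BCR-ABL-Blk and vector) and 3.96% (BCR-ABL-Blk and BCR-ABL) passed that threshold in either direction. The metallothioneins Mt2 and Mt1, which bind zinc and other metals, were nearest, with differences of −1.60 (adjusted p = 0.0517) and −1.59 (adjusted p = 0.0645) between BCR-ABL-Blk and vector. Mt2 read 9.035 and 9.07 in BCR-ABL-Blk cells, 9.87 and 9.45 in BCR-ABL cells, and 10.905 and 10.39 in vector cells, an order in which no arrays overlap. With either vector array dropped, this difference stayed between −1.85 and −1.34 for Mt2 and between −1.79 and −1.39 for Mt1. A single vector array has no spread of its own, so no call is taken from those fits. Both genes passed between BCR-ABL-Blk and vector with a filter on low values (adjusted p = 0.0360 for Mt2 and 0.0462 for Mt1). Both also passed there without normalization between arrays, where they passed between BCR-ABL and vector as well. Mt2 alone passed with the replicate number as a block. Neither gene passed there with all probe sets, array weights, cyclic loess or eBayes without trend. Centring each array on its median, or using only the 4 arrays of the 2 groups, gave no pass either. The BCR-ABL minus vector difference of Mt2 ran from −1.25 to −0.73 over leaving out each array. Between BCR-ABL and vector Mt2 and Mt1 gave −0.99 and −0.81, and between BCR-ABL-Blk and BCR-ABL they gave −0.61 and −0.78. Mt1 passed by limma in the last comparison without normalization between arrays (difference −0.59, adjusted p = 0.0217). Passes without that normalization carry the limit on p-values given for Fosb. Hspb1, a small heat shock protein, differed by 0.91 between BCR-ABL and vector (adjusted p = 0.0923), by 0.52 for BCR-ABL-Blk against vector (adjusted p = 0.314) and by −0.39 for BCR-ABL-Blk against BCR-ABL.

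Of 23 other immediate-early genes 22 were measured, and 0 passed by limma in any comparison. At an unadjusted p under 0.05, 2 were higher and 2 lower between BCR-ABL and vector, 1 was higher between BCR-ABL-Blk and vector, and 1 was lower between BCR-ABL-Blk and BCR-ABL. Ier3, an early-response gene that modulates cell death and ERK signalling, came nearest of them. It read 8.62 and 8.57 in BCR-ABL-Blk cells, 8.83 and 9.19 in BCR-ABL cells, and 7.995 and 8.18 in vector cells. Neither BCR-ABL group overlapped with vector, as held for 37.0% (BCR-ABL) and 37.2% (BCR-ABL-Blk) of all genes. The difference was 0.92 for BCR-ABL (adjusted p = 0.107) and 0.51 for BCR-ABL-Blk (adjusted p = 0.364). The BCR-ABL-Blk minus BCR-ABL difference was −0.415 (adjusted p = 0.999). Without normalization between arrays Ier3 passed by limma between BCR-ABL and vector (difference 0.815, adjusted p = 0.0386), with the limit on such p-values given for Fosb.

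Btg2, an antiproliferative gene, read 8.915 and 9.16 in BCR-ABL-Blk, 8.90 and 8.49 in BCR-ABL, and 9.16 and 9.34 in vector cells; its difference was −0.55 between BCR-ABL and vector (adjusted p = 0.425) and 0.34 between BCR-ABL-Blk and BCR-ABL. Plk2, a polo-like kinase, differed by 0.25 between BCR-ABL and vector (adjusted p = 0.493) and by −0.18 for BCR-ABL-Blk against BCR-ABL. Between BCR-ABL-Blk and vector, Zfp36l2, an RNA-decay factor, differed by 0.29 (adjusted p = 0.589) and Gadd45b, a stress-response gene, by −0.33 (adjusted p = 0.617). The median difference over the 22 genes was 0.04 between BCR-ABL and vector, −0.02 between BCR-ABL-Blk and vector and −0.03 between BCR-ABL-Blk and BCR-ABL.

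All 13 listed bZIP partners, factors that can pair with Fos or Jun proteins or bind like sites, were measured and 0 passed by limma in any comparison. At an unadjusted p under 0.05 there were 0 in each comparison with vector and 1, Maff, between BCR-ABL-Blk and BCR-ABL, where 3.96% of all genes passed that threshold. Maff, a small Maf protein, read 7.91 and 7.68 in BCR-ABL-Blk cells, 8.55 and 8.17 in BCR-ABL cells, and 7.995 and 8.14 in vector cells. Both BCR-ABL arrays lay highest, and the differences were −0.56 between BCR-ABL-Blk and BCR-ABL (adjusted p = 0.999), 0.29 between BCR-ABL and vector (adjusted p = 0.700) and −0.27 between BCR-ABL-Blk and vector (adjusted p = 0.706). Batf, a bZIP factor that pairs with Jun proteins in lymphocytes, differed by 0.17 and Atf7 by −0.28 between BCR-ABL and vector (adjusted p = 0.849 and 0.739). Atf4, the effector of the integrated stress response, and Mafk differed by −0.15 and −0.17 between BCR-ABL-Blk and vector (adjusted p = 0.757 and 0.789). Between BCR-ABL-Blk and BCR-ABL Creb1, the cAMP response element binding protein, differed by 0.15 and Mafk by −0.20, both at an adjusted p of 0.999.

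ERK feedback genes and the EGR corepressors Nab1 and Nab2, 12 genes all measured, had 10 above 0 between BCR-ABL and vector, with a median of 0.14, where 54.3% of all genes lay above 0. By limma 0 passed in any comparison; at an unadjusted p under 0.05, 3 were higher between BCR-ABL and vector (8.64% of all genes passed that threshold in either direction), 1 was higher between BCR-ABL-Blk and vector (9.42% of all), and 1 was lower between BCR-ABL-Blk and BCR-ABL (3.96% of all). Dusp4, a nuclear phosphatase of ERK and JNK, read 7.26 and 7.36 in BCR-ABL-Blk cells, 7.38 and 7.58 in BCR-ABL cells, and 6.98 and 7.09 in vector cells. Neither BCR-ABL group overlapped with vector, as held for 37.0% (BCR-ABL) and 37.2% (BCR-ABL-Blk) of all genes. The difference was 0.45 for BCR-ABL (adjusted p = 0.313) and 0.28 for BCR-ABL-Blk (adjusted p = 0.541), and −0.17 between BCR-ABL-Blk and BCR-ABL. Spry2, which dampens receptor tyrosine kinase signalling, differed by 0.44 between BCR-ABL and vector (adjusted p = 0.463) and by −0.485 for BCR-ABL-Blk against BCR-ABL. Spred1, a negative regulator of Ras signalling, differed by 0.36 for each BCR-ABL group against vector (adjusted p = 0.485 for BCR-ABL and 0.430 for BCR-ABL-Blk). Dusp2, a phosphatase induced in activated lymphocytes, differed by −0.23 for BCR-ABL-Blk against vector (adjusted p = 0.682), and Dusp6, the cytoplasmic ERK phosphatase, by −0.24 for BCR-ABL-Blk against BCR-ABL. Dusp1, an immediate-early phosphatase of MAP kinases, was also named after its values were seen. It read 9.58 and 9.12 in BCR-ABL-Blk cells, 9.455 and 8.58 in BCR-ABL cells, and 8.53 and 9.99 in vector cells. Its higher array in each group was that of Fos, Fosb and Jun, and the same held for Dusp2 and Nab2. The other genes of this list did not share these higher arrays in every group. Among the other immediate-early genes only Egr3 and Gadd45b shared them, and among the bZIP partners only Maff and Mafg. No measured upstream kinase or serum response factor did. The share of all genes with these higher arrays was not computed. The median of the 12 was 0.09 between BCR-ABL-Blk and vector (9 above 0) and −0.03 between BCR-ABL-Blk and BCR-ABL (5 above 0).

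Of 16 upstream kinases and serum response factors 11 were measured and 0 passed by limma in any comparison, with 0 also at an unadjusted p under 0.05. Their medians were 0.13 between BCR-ABL and vector, −0.05 between BCR-ABL-Blk and vector and −0.07 between BCR-ABL-Blk and BCR-ABL. Rps6ka3, the kinase RSK2, differed by 0.165 between BCR-ABL and vector (adjusted p = 0.665) and by 0.18 for BCR-ABL-Blk against vector (adjusted p = 0.600). Mapk8, the kinase JNK1, and Mapk14, the kinase p38 alpha, differed by 0.22 and 0.13 between BCR-ABL and vector (adjusted p = 0.804 and 0.823). Elk3, a ternary complex factor, differed by 0.17 and Srf, the serum response factor itself, by −0.215 for BCR-ABL-Blk against vector (adjusted p = 0.702 and 0.742). Between BCR-ABL-Blk and BCR-ABL Mapk8 differed by −0.41, Map2k1, the kinase MEK1, by −0.21 and Elk1, another ternary complex factor, by −0.24, each at an adjusted p of 0.999.

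The mean profile of the 10 factors over the arrays, each centred on its own mean, was 0.11 and −0.07 in BCR-ABL-Blk, 0.25 and −0.15 in BCR-ABL, and −0.36 and 0.23 in vector cells. The genes nearest to it, by the root mean square difference of centred log2 values over the 6 arrays, were Sync (0.067), Top1mt (0.074), Slc16a7 (0.075), Nsun6 (0.077) and Lmod2 (0.077). The median over all genes was 0.25. Of the factors themselves, Fosb (0.41), Jun (0.39), Egr2 (0.32), Fos (0.27) and Atf3 (0.26) lay farther from the mean profile than that. Fosl2 (0.20), Junb (0.19), Jund (0.17), Ier2 (0.15) and Egr1 (0.11) lay nearer. The mean profile is thus an average that many of the factors do not follow closely. This measure depends on the size of the swings as well as on their pattern, so genes that differ more between arrays than the mean profile lie far from it whatever their order. Sync read 8.755 and 8.70 in BCR-ABL-Blk cells, 8.96 and 8.64 in BCR-ABL cells, and 8.36 and 8.82 in vector cells, so it too was low on vector replicate 1.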

How the data were processed

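The deposited values are log2 levels of 35557 probe sets, made by the authors with Affymetrix Expression Console 1.1 and RMA, per the submitters' processing notes; options and build: not given in the sources used here. Deposited medians ran from 7.01 to 7.52, so the arrays were quantile normalized with limma, which removes shifts of whole arrays. Probe sets with 1 symbol (21789) were kept, with the highest mean per gene, leaving 19938 genes; no level filter was used. Groups came from sample titles. Limma 3.58.1 in R 4.3.3 (lmFit, eBayes with trend) was fitted to all 6 arrays and 3 groups without a block, with 3 residual and 4.40 prior degrees of freedom, two-sided, with Benjamini-Hochberg adjustment over all genes. The code was run on simulated data with independent normal noise for each gene. Such data cannot test the p-values where genes move together between arrays. The median SE of a difference was 0.129, limited by the number of arrays. No pair of the arrays held identical values.

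The 10 genes and the related lists were chosen with earlier results of these data known. All 10 were named, then the 3 genes of smallest p per related list and comparison, any called, and the 5 genes nearest the mean profile; Hspa1a, Dusp1, Blk, Kit, Ly6a and the called marker genes were added outside that rule. Alternatives covered scaling, trend, arrays, block, level filter, probe sets, weights and leaving out arrays. Promoter sequences came from RefSeq (GRCm38.p6). Figures used Python 3.11.15 and matplotlib 3.10.9.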

Additional observations from a re-analysis of the deposited data

How the results depend on the processing

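With 2 arrays a group, 15 alternatives were run, 6 of which left out 1 array each. Of 447 alternative values of the 10 factors, 396 kept their sign and their side of the threshold, 50 changed sign and 1 changed its call; the causes were not tested. That 1 call was Fosb between BCR-ABL-Blk and vector without normalization between arrays, so that 1 of the 10 factors was called there. P-values of that setting cannot be taken to measure each gene's own replicate spread. Without that normalization the median gene differed by −0.11 (BCR-ABL minus vector), 0.15 (BCR-ABL-Blk minus vector) and 0.255 (BCR-ABL-Blk minus BCR-ABL). In that setting the sign turned between BCR-ABL-Blk and BCR-ABL for Egr1 (0.14), Fosl2 (0.22), Ier2 (0.255), Junb (0.25), Jund (0.28), Dusp4 (0.12), Dusp6 (0.035), Elk1 (0.025), Mafk (0.085), Map2k1 (0.05) and Plk2 (0.11). It turned between BCR-ABL-Blk and vector for Egr2 (0.14), Fos (0.085), Fosl2 (0.14), Junb (0.045), Jund (0.085) and Atf4 (0.03), and between BCR-ABL and vector for Fosl2 (−0.08). Cyclic loess turned Jund between BCR-ABL-Blk and BCR-ABL (0.027). Over leaving out each array in turn, the BCR-ABL minus vector difference ran from −0.44 to 0.31 for Atf3, −0.22 to 0.83 for Fos, −0.40 to 1.06 for Fosb, −0.032 to 0.13 for Fosl2, −0.065 to 0.60 for Ier2, −1.02 to 0.70 for Jun, −0.42 to 0.25 for Junb, −0.22 to 0.039 for Jund and −0.070 to 0.40 for Batf. The BCR-ABL-Blk minus vector difference ran from −0.20 to 0.25 for Atf3, −0.055 to 0.39 for Egr1, −0.165 to 0.15 for Egr2, −0.525 to 0.35 for Fos, −0.067 to 1.39 for Fosb, −0.10 to 0.062 for Fosl2, −0.11 to 0.56 for Ier2, −0.74 to 0.97 for Jun, −0.46 to 0.21 for Junb and −0.23 to 0.0375 for Jund. The BCR-ABL-Blk minus BCR-ABL difference ran from −0.29 to 0.46 for Atf3, −0.92 to 0.13 for Fos, −0.24 to 0.91 for Fosb, −0.16 to 0.075 for Ier2, −0.12 to 0.66 for Jun, −0.11 to 0.036 for Junb, −0.091 to 0.0875 for Jund and −0.45 to 0.03 for Map2k1. Among all genes, 29 passed between BCR-ABL and vector; this became 15 with eBayes without trend, 50 with the filter on low values, 401 without normalization between arrays, and between 1 and 507 when 1 array was left out (507 without vector replicate 1, 214 without vector replicate 2, 1 without either BCR-ABL array). Between BCR-ABL-Blk and vector 28 passed; this became 13 over all probe sets, 14 with array weights, 6 with cyclic loess, 4 with eBayes without trend, 53 with the filter on low values, 731 without normalization between arrays, 4 with the 4 arrays of the 2 groups, and between 4 and 560 when 1 array was left out (560 without vector replicate 1, 227 without vector replicate 2, 4 without either BCR-ABL array, 10 without BCR-ABL-Blk replicate 1). Between BCR-ABL-Blk and BCR-ABL the count of 0 became 79 without normalization between arrays and ran from 0 to 2 when 1 array was left out. The filter at the median level of 7.495 kept 9 of the 10 factors (Atf3 was removed) among 10463 genes. The called marker genes kept their sign in every alternative that could test them, and the call was kept least often by Klrd1 between BCR-ABL-Blk and vector (3 of 14) and most often by Gzmb between BCR-ABL and vector (13 of 15). Where 1 array of a group remained, that array was assumed to vary like the other groups.

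Groups share replicate numbers, and the labels do not say whether the numbers pair the samples. Over genes, the differences between replicate 1 and replicate 2 correlated at −0.06 between vector and BCR-ABL. They correlated at 0.08 between vector and BCR-ABL-Blk, and at 0.03 between BCR-ABL and BCR-ABL-Blk. Such values show no broad pairing, but cannot exclude one with small effects or effects on few genes. With the replicate number as a block, 0 of the 10 factors passed in each comparison, and 29, 23 and 0 genes passed between BCR-ABL and vector, BCR-ABL-Blk and vector, and BCR-ABL-Blk and BCR-ABL. Mt2 between BCR-ABL-Blk and vector passed with the block (adjusted p = 0.0422 by limma).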
